A study of Mus musculus with 8 samples.

Results

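The Wnt ligands of skin described here are Wnt3, Wnt3a, Wnt4, Wnt5a, Wnt6, Wnt7b, Wnt10a, Wnt10b, Wnt11 and Wnt16. These 10 genes were chosen by symbol among the 31053 genes that the count tables list, and each was found once. Wnt proteins are secreted lipid-modified signals that bind Frizzled receptors, and in the canonical branch of the pathway they stop the breakdown of β-catenin, which then acts with TCF/LEF factors on target genes. In skin they are known for hair follicle formation, for the hair cycle and for the upkeep of basal keratinocytes. Fibroblasts (FBs) of the dermis also make Wnt ligands, and the dermal papilla is a known site of signalling between FBs and follicle epithelium.

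Single-cell libraries were made from dorsal skin of female BALB/c mice, 14 to 16 weeks old per the labels, with no genetic change given for any group. The skin of 4 samples had been injected with PBMCsec (the secretome of irradiated human peripheral blood mononuclear cells) and that of 4 samples with vehicle. The study's methods describe scars of excised wounds, injected with the secretome or a control, with some mice taken at the end of the injections and others after a rest. The labels give neither the time point nor the control solution of a library and do not state that each library is 1 mouse, so libraries were compared by treatment alone, and the p-values measure the spread between these samples. They are named by treatment and number, 1 to 4.

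The libraries held 14753926 to 37880651 UMIs (unique molecular identifiers, each standing for 1 captured RNA molecule). Of 26231 barcodes, 6150 passed the filter of the study (500 to 4000 genes, at most 20000 UMIs, at most 5% mitochondrial counts), from 151 to 1659 per library, and 16900 barcodes were over the mitochondrial limit. Kept cells of different libraries shared 4 barcode sequences in all, at most 2 in any pair of libraries. The clusters were named from marker genes, and such names are written with "-like". The epithelial class held 11 clusters and 2621 cells (21 to 892 per library), and the FB class held 9 clusters and 1608 cells (27 to 549 per library). A cluster of 218 cells with keratinocyte genes (cluster 13, led by Tagln, Dio3 and Acta2) belongs to neither. It had 3 of 8 smooth muscle and pericyte markers but also 2 general epithelial markers, and was left without a class. Levels are given as CPM, counts per 1000000 UMIs of the same cells, and are compared between cell types for the same gene only.

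The ligands lie on several chromosomes of the mouse genome (GRCm38, GENCODE M21), and some lie close to another Wnt gene. Wnt6 (ENSMUSG00000033227, chr1:74771892-74785322) and Wnt10a (ENSMUSG00000026167, chr1:74791516-74804179) lie on the same strand with 6193 bases between them. Wnt3a (ENSMUSG00000009900, chr11:59248033-59290752) lies 16175 bases from Wnt9a on the other strand. Wnt3 (ENSMUSG00000000125) spans chr11:103774150-103817957, Wnt4 (ENSMUSG00000036856) chr4:137277489-137299726 and Wnt5a (ENSMUSG00000021994) chr14:28504750-28527448. Wnt7b (ENSMUSG00000022382) spans chr15:85535437-85582473 and Wnt10b (ENSMUSG00000022996) chr15:98770712-98778150. Wnt11 (ENSMUSG00000015957) spans chr7:98835112-98855195 and Wnt16 (ENSMUSG00000029671) chr6:22288227-22298522. No member is overlapped by another gene on its own strand. An antisense gene overlaps Wnt5a (Gm2670), Wnt6 (Gm29539), Wnt7b (AU022754) and Wnt11 (Gm8398).

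Promoter sequence of RefSeq (GRCm38.p6) was at hand for 7 of the 10 ligands, with 8 starts. The 250 bases before the start are shown for 1 ligand that was high in epithelial cells (Wnt3), 1 that was high in FBs (Wnt16) and 1 with levels in FBs and dendritic cell-like cells (Wnt11, the upstream of its 2 starts). Capitals mark the GC box GGGCGG, the TATA box TATAAA and the TCF/LEF motif CTTTGA on either strand, and motifs of different kinds do not overlap in these stretches.
Wnt3: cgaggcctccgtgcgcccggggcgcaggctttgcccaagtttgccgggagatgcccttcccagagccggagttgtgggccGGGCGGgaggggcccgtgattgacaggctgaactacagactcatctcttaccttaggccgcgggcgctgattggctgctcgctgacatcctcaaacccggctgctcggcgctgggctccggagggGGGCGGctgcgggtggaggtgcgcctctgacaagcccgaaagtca
Wnt11: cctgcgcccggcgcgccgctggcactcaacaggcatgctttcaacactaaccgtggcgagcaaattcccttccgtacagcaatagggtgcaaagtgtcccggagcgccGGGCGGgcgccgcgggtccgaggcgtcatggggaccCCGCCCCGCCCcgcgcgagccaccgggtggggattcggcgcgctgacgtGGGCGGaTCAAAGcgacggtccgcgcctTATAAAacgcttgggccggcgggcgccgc
Wnt16: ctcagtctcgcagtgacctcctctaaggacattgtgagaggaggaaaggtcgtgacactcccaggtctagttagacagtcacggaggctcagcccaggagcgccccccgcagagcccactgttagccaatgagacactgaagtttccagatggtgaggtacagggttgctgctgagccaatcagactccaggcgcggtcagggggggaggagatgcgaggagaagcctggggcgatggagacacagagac
These stretches are chr11:103773925-103774174 and chr7:98834862-98835111 on the plus strand for Wnt3 and Wnt11, and chr6:22287977-22288226 on the plus strand for Wnt16. The Wnt3 stretch held 2 GC boxes, that of Wnt11 held 4 GC boxes, 1 TATA box and 1 TCF/LEF motif, and that of Wnt16 held none of these letters. Among all 32851 listed promoters of the same length, 32.7% held a GC box, 12.4% a TATA box and 13.8% the TCF/LEF motif on either strand. GC content was 68.0% for Wnt3, 70.8% for Wnt11 and 59.2% for Wnt16, against a median of 52.4%.

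The first comparison asks which ligands belong to the epithelium and which to the FBs of the same libraries. Of the 10 ligands, 5 had their highest cluster among the epithelial clusters and 5 among the FB clusters. Wnt3, Wnt3a, Wnt4, Wnt7b and Wnt10a had between 95.9% and 99.4% of their UMIs in epithelial cells. Wnt10b, Wnt11 and Wnt16 had between 53.0% and 72.7% of theirs in FBs. Summed over libraries, Wnt5a was divided almost evenly, with 49.3% in epithelial cells and 48.9% in FBs. By library its division varied, from 1 epithelial and 12 FB UMIs in vehicle library 1 to 162 and 78 in vehicle library 3. Wnt6 had 71.2% in epithelial cells and 16.5% in FBs.

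**Figure D1:**
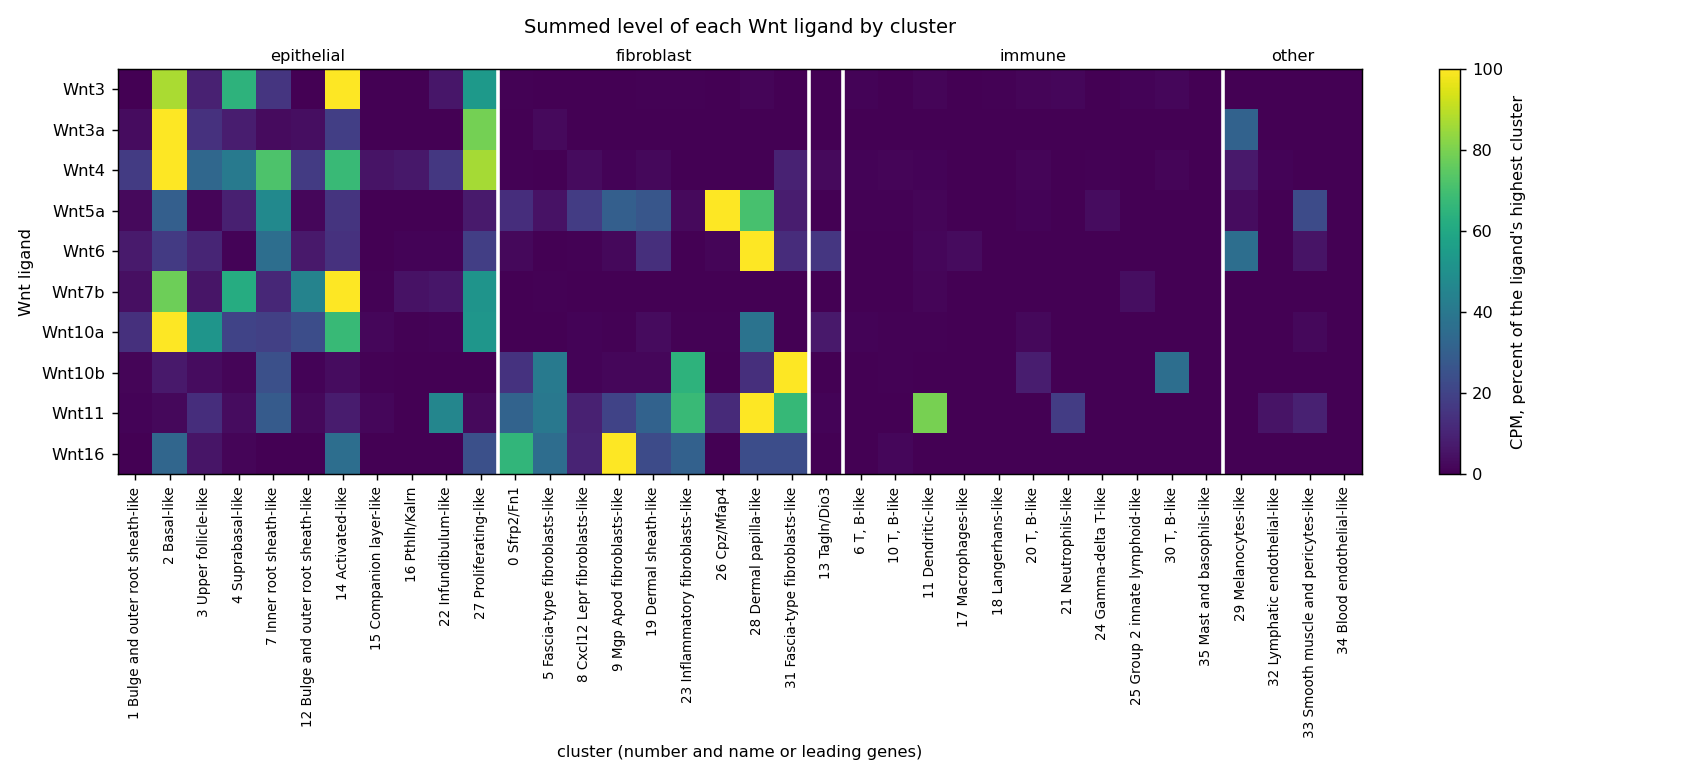
Level of each ligand (rows) in the 36 clusters (columns, by class), as CPM of the summed counts in percent of the highest cluster of that ligand. Wnt3, Wnt3a, Wnt4, Wnt7b and Wnt10a are brightest in epithelial clusters such as 2 and 14, Wnt5a, Wnt10b and Wnt16 in FB clusters, and Wnt11 also in cluster 11.

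Counts were summed per library in each class and tested with edgeR's quasi-likelihood test, with the library as a block. The classes come from clusters of the same cells, but the Wnt genes and the pathway genes named later had been left out of the features that were clustered. Of 9925 genes tested, 68.8% differed between the classes at an adjusted p under 0.05, with 36.2% of all tested higher and 32.6% lower in epithelial cells, and 71.4% had an unadjusted p under 0.05. Of the 9 ligands with enough counts, 5 were higher and 4 were lower in epithelial cells. With so high a share over all genes, the count of ligands that differ says little about the ligands themselves, and the sizes below carry the description.

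Wnt3, a canonical ligand of the epidermis and follicle, had 37.8 to 147 CPM in the epithelial cells of the 8 libraries and 0 to 1.37 CPM in their FBs. Every library was higher in epithelial cells, with no overlap between the classes. The summed counts were 2195 UMIs in epithelial cells and 8 in FBs, a ratio of 146 (95% interval 73.8 to 338, counting error only), and the fitted log2 difference was 7.15. A Wnt3 UMI was seen in 29.6% of epithelial cells, in 0.498% of FBs and in 0.658% of immune cells, which are not known as a source of it, at median depths of 9982, 8578 and 3884 UMIs per cell. Drawing 2000 UMIs from each cell that had as many (567 cells of all classes had fewer), to set the depths equal, left shares of 12.1%, 0.066% and 0.316%. The share in FBs was no higher than in immune cells, and whether these UMIs came from the FBs themselves was not tested.

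Wnt7b, a second canonical ligand, had 14.8 to 43.9 CPM in epithelial cells and 0 to 0.55 CPM in FBs, where 1 UMI was seen in all. From that single UMI the ratio was 363 (95% interval 64.9 to 14357). Wnt3a, a close relative of Wnt3, was rare, with 88 UMIs in epithelial cells (0.81 to 8.57 CPM) and 1 UMI in FBs, and it did not have enough counts for the test. Its ratio was 46.7 (95% interval 8.17 to 1865). Both ligands were higher in epithelial cells in 8 of 8 libraries.

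Wnt4, known from epidermis and from many epithelia, had 123 to 221 CPM in epithelial cells and 0 to 28.9 CPM in FBs. The highest FB value came from PBMCsec library 2 (18 UMIs), and the next highest was 8.30 CPM, in PBMCsec library 1. Cxcl12 Lepr fibroblast-like cells (cluster 8) held 12 UMIs in PBMCsec library 2 (76.6 CPM) and 10 UMIs in PBMCsec library 1 (45.4 CPM). In the other libraries with 10 or more such cells they had 0 to 5.15 CPM. Epithelial cells were higher in 8 of 8 libraries, with a log2 difference of 5.11 and a ratio of summed counts of 38.2 (95% interval 29.5 to 50.4).

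Wnt10a, whose loss causes skin, hair and tooth defects, had 63.9 to 124 CPM in epithelial cells and 0 to 15.4 CPM in FBs. Its log2 difference was 4.51, and again every library was higher in epithelial cells. Of its 48 UMIs in FBs, 28 were in the dermal papilla-like cells described below. PBMCsec library 2 had 0 such cells, and its 7 UMIs in FBs lay in cluster 0 (3 UMIs) and cluster 8 (4 UMIs).

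Wnt6, the neighbour of Wnt10a, differed least among the 5 that were higher. It had 0 to 22.7 CPM in epithelial cells and 1.03 to 27.0 CPM in FBs, so the classes overlapped, and epithelial cells were higher in only 5 of 8 libraries. The log2 difference was 1.22 (edgeR, adjusted p = 0.0222), and this call was lost under 5 alternatives, among them leaving out single libraries.

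Wnt5a, the best known non-canonical ligand, was lower in epithelial cells by 1.02 on the log2 scale, with 4.92 to 20.6 CPM against 26.7 to 70.7 CPM in FBs. FBs were higher in 8 of 8 libraries. The ratio of summed counts, FB over epithelial, was 1.87 (95% interval 1.64 to 2.13, counting error only). That interval does not cover the spread between libraries. In FBs, libraries numbered 1 and 2 had 46.3 to 70.7 CPM and those numbered 3 and 4 had 26.7 to 32.9 CPM. In epithelial cells they had 4.92 to 18.2 CPM and 13.8 to 20.6 CPM.

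Wnt16 had 0 to 9.83 CPM in epithelial cells and 8.02 to 40.4 CPM in FBs, a log2 difference of -2.23. Wnt10b, known as an early signal of hair placodes, had 0 to 9.24 CPM against 4.81 to 38.6 CPM, a log2 difference of -1.996. Both were higher in FBs in 8 of 8 libraries. Wnt11, known mostly for non-canonical signalling, had 0 to 13.2 CPM against 5.05 to 23.3 CPM, a log2 difference of -1.76, and was higher in FBs in 7 of 8 libraries. The exception was PBMCsec library 2, with 13.2 CPM in epithelial cells and 11.2 CPM in FBs.

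**Figure D2:**
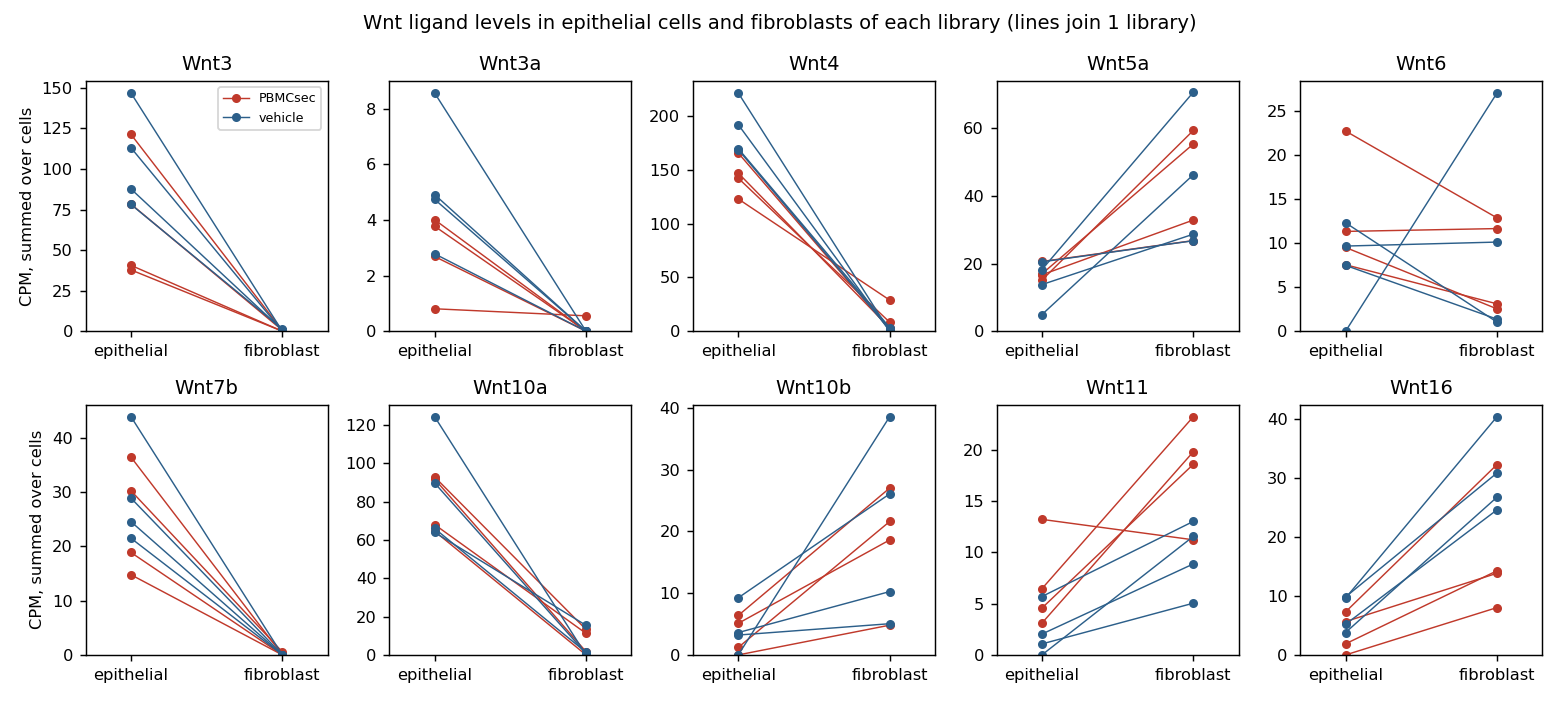
CPM of each ligand in epithelial cells and FBs of the 8 libraries, summed over cells, with a line joining the values of 1 library (red PBMCsec, blue vehicle). Wnt3, Wnt4, Wnt7b and Wnt10a fall along every line from epithelial cells to FBs, and Wnt5a, Wnt10b and Wnt16 rise along every line.

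Within the epithelium, values are given by cluster as a description, since clusters were drawn from the same cells. Neighbours in the order of levels are compared within libraries that hold at least 10 cells of both. Wnt3 was highest in activated keratinocyte-like cells (cluster 14, led by Serpinb2, Fosl1 and Krt16), with 254 CPM (199.96 to 347 over 6 libraries). Basal keratinocyte-like cells (cluster 2) followed with 222 CPM (133 to 271), and the activated cells were higher in 6 of 6 shared libraries. Suprabasal keratinocyte-like cells (cluster 4) had 165 CPM and were lower than basal cells in 4 of 5 shared libraries. Outside these and the proliferating cells (cluster 27, 138 CPM), Wnt3 was at 39.1 CPM or less. Inner root sheath-like (cluster 7), upper follicle-like (cluster 3) and infundibulum-like cells (cluster 22) had 39.1, 23.3 and 15.9 CPM.

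Wnt7b had the same leading clusters, with 76.1 CPM in activated, 59.4 CPM in basal and 47.1 CPM in suprabasal keratinocyte-like cells. The activated cells were above the basal cells in 5 of 6 shared libraries. Unlike Wnt3, Wnt7b also had 34.2 CPM in one of the bulge and outer root sheath-like clusters (cluster 12), between 5.19 and 73.4 CPM over 5 libraries. The other bulge and outer root sheath-like cluster (cluster 1) had 3.21 CPM.

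Wnt4 was spread more widely over the epithelium. It had 376 CPM in basal keratinocyte-like cells (295 to 550 over 6 libraries), 326 CPM in proliferating cells, 271 CPM in inner root sheath-like cells and 254 CPM in activated cells. Basal and proliferating cells did not keep 1 order within libraries (basal higher in 1 of 3), and neither did inner root sheath-like and activated cells (2 of 5). Upper follicle-like cells still had 126 CPM, above cluster 12 with 66.0 CPM in 5 of 5 shared libraries. A Wnt4 UMI was seen in 86.5% of basal cells and in 64.3% of inner root sheath-like cells, and after thinning to 2000 UMIs in 49.1% and 36.0%, against 1.45% of immune cells before thinning.

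Wnt10a had 224 CPM in basal keratinocyte-like cells (183 to 254 over 6 libraries), and it was higher there than in activated cells (150 CPM) in 5 of 6 shared libraries. Proliferating and upper follicle-like cells had 118 and 117 CPM, which did not keep 1 order (2 of 3 libraries). Suprabasal cells had 44.6 CPM. Wnt3a was found mostly in basal keratinocyte-like cells, which held 57 of its 90 UMIs (16.0 CPM). In those basal cells each of the 10 ligands had more than 3 UMIs, and the same held in activated and in upper follicle-like cells. Of libraries with 10 or more basal cells, only PBMCsec library 1 (1 UMI) and vehicle library 4 (3 UMIs) had Wnt11 there.

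Of single cells, 96.7% of basal and 98.6% of activated keratinocyte-like cells held a UMI of at least 1 of the 10 ligands. The mean number of ligands with a UMI per cell was 3.77 in basal, 3.43 in activated, 2.60 in proliferating and 2.27 in suprabasal keratinocyte-like cells. It was 1.67 in inner root sheath-like and 1.52 in upper follicle-like cells. Companion layer-like cells (cluster 15) had 0.188, with a median depth of 10235 UMIs per cell. In FB clusters the mean ran from 0.302 to 1.06, highest in dermal papilla-like cells. It was lowest in cluster 31, which had the fewest UMIs per cell of the FB clusters. These means depend on depth, which was not set equal here.

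**Figure D3:**
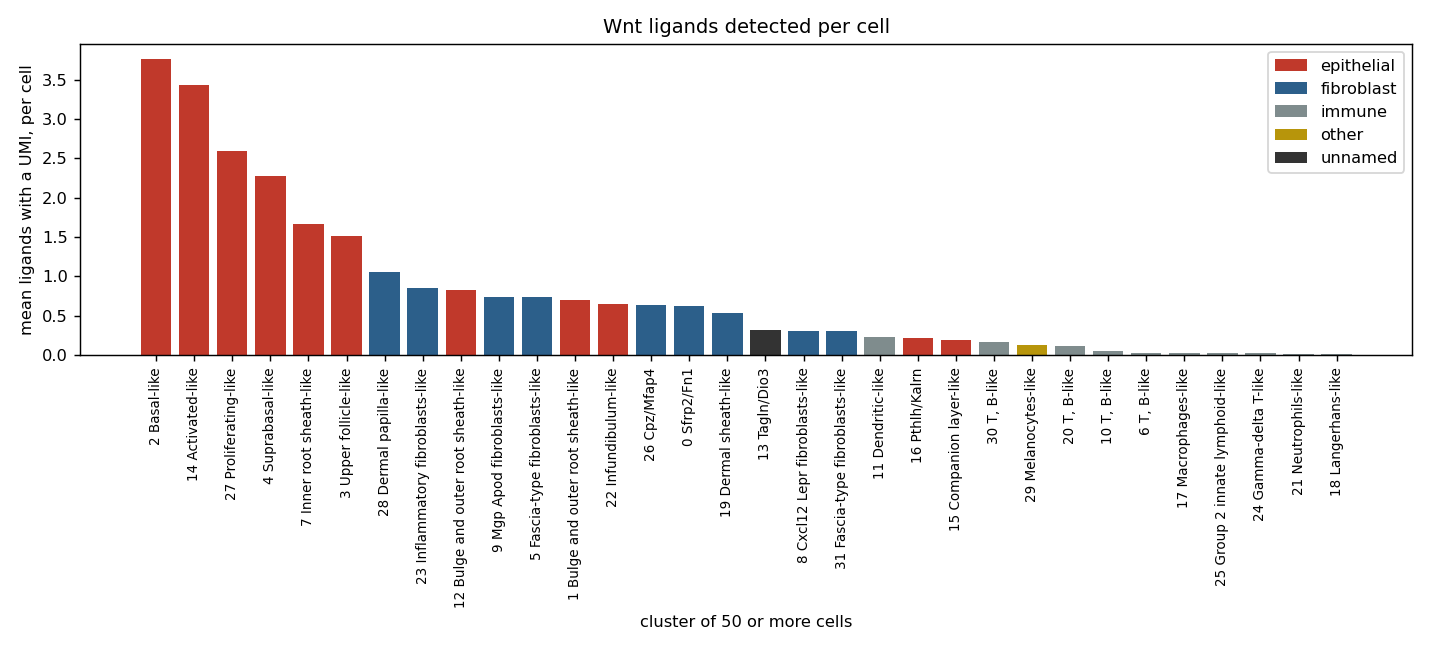
Mean number of the 10 ligands with at least 1 UMI in a cell, by cluster of 50 or more cells (bars, coloured by class). Basal and activated keratinocyte-like cells stand highest, with 3.77 and 3.43, and immune clusters are low. Depth per cell differs between clusters and was not set equal.

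The dermal papilla-like cells (cluster 28, 69 cells, led by Slc26a7, Crabp1 and Wif1) had several ligands in their summed counts. Single cells of the cluster held a mean of 1.06 ligands, and 7.25% held 3 or more. The dermal papilla-like cells carried 1 of 7 general FB markers at the level set for naming, with Col1a1 at 518 CPM. They were placed with the FBs by 6 of 8 dermal papilla markers. Wnt6 was highest there, with 97.4 CPM (32 UMIs), and Wnt10a had 85.3 CPM (28 UMIs), while the next FB cluster had 6.49 CPM. Wnt10a was uneven between libraries, with 165 CPM in PBMCsec library 1, 42.1 CPM in PBMCsec library 3 and 0 CPM in vehicle library 3. These cells also had 110 CPM of Wnt5a and 54.8 CPM of Wnt11. Wnt5a was uneven too, with 39.4 CPM in PBMCsec library 1, 274 CPM in PBMCsec library 3 and 45.6 CPM in vehicle library 3. Lef1, a nuclear partner of β-catenin, had 499 CPM there, and Notum, a secreted enzyme that removes the lipid from Wnt proteins, had 371 CPM. The next highest Notum value was 7.90 CPM, in inner root sheath-like cells.

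Inner root sheath-like cells had several of these ligands too. They had 73.3 CPM of Wnt5a, 35.1 CPM of Wnt6 and 32.9 CPM of Wnt10b, with Lef1 at 235 CPM. PBMCsec library 1 had 458 CPM of Wnt5a in this cluster and the other 4 libraries had 61.3 to 87.8 CPM. No Wnt16 UMI was seen in these cells, which allows up to 1.32 CPM.

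Of FB clusters, the one without a subtype name that was led by Cpz, Mfap4 and Col1a1 (cluster 26, 76 cells) had the highest Wnt5a level, 155 CPM (139 to 166 over 3 libraries). It also had the highest Axin2, a general target of the canonical pathway, with 63.1 CPM. Mgp Apod fibroblast-like cells (cluster 9) had 46.9 CPM of Wnt5a, and dermal sheath-like cells (cluster 19) had 41.1 CPM. Cluster 26 and the dermal papilla-like cells split, for Wnt5a, their 2 shared libraries, 1 higher in each.

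Wnt16 was highest in Mgp Apod fibroblast-like cells, 51.6 CPM (12.01 to 102 over 6 libraries), then in cluster 0 (led by Sfrp2 and Fn1), 34.1 CPM (8.74 to 40.8). These 2 clusters did not keep 1 order (3 of 6 libraries). Cluster 26 held no Wnt16 UMI, which allows up to 3.86 CPM. Basal and activated keratinocyte-like cells had 17.1 and 18.6 CPM, close to fascia-type fibroblast-like cells (cluster 5, 18.4 CPM).

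Wnt10b was highest in fascia-type and inflammatory fibroblast-like cells. Cluster 5 had 54.8 CPM (31.2 to 105 over 6 libraries) and inflammatory fibroblast-like cells (cluster 23, led by Ptx3, Ccl2 and Cxcl1) had 86.8 CPM, higher than cluster 5 in 3 of 3 shared libraries. Library PBMCsec 3 gave 56.7% of cluster 23. A second fascia-type cluster (cluster 31) had 134 CPM from 11 UMIs, at a median of 1137 UMIs per cell. A T cell-like cluster led by Trdc, Cd7 and Tcrg-C1 (cluster 30) had 10 Wnt10b UMIs in 54 cells (48.4 CPM). PBMCsec library 3 and vehicle library 3, which alone gave 10 or more of these cells, held 1 and 2 of these UMIs. The rest came from libraries with at most 9 such cells each, so the level rests on few cells. T cell-like cluster 20 had 10.6 CPM. The larger T cell-like cluster 6 had 0 UMIs in 269 cells, which allows up to 3.29 CPM.

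Wnt11 was divided between classes, with 53.0% of its UMIs in FBs, 26.0% in epithelial cells and 20.2% in immune cells. Dermal papilla-like cells had 54.8 CPM and inflammatory fibroblast-like cells 37.2 CPM, while infundibulum-like cells had 25.2 CPM. Dendritic cell-like cells (cluster 11, 233 cells, led by Lyz1, Cd209a and Mgl2) had 43.7 CPM from 85 UMIs, with UMIs in each of the 7 libraries that gave 10 or more such cells. The values in these 7 libraries ran from 11.9 to 151 CPM. A UMI was seen in 15.0% of these cells (95% Clopper-Pearson interval 10.7% to 20.3%), and in 0 of 160 macrophage-like cells and 0 of 124 Langerhans cell-like cells, which by the floor of 3 counts allows shares of cells with a UMI of up to 1.88% and 2.42%. The median depths were 8379, 5625 and 7366 UMIs per cell. With 2000 UMIs drawn from each cell that had as many, the share was 5.83% of 206 dendritic cell-like cells. It was 0 of 143 macrophage-like and 0 of 120 Langerhans cell-like cells. The same dendritic cell-like cells had 0 Wnt16 UMIs and 1 Wnt10b UMI. They also held 7 Wnt3, 5 Wnt4 and 4 Wnt5a UMIs in vehicle library 3, and 3 Wnt6 UMIs in PBMCsec library 2. Their Col1a1 level was 18.0 CPM and their Krt5 level 85.8 CPM. Whether any of these UMIs came from other cells was not tested.

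Likeness of pattern was measured by Pearson's r of log2(CPM + 10) over the 32 clusters of 50 or more cells, among 9315 genes with 500 or more UMIs and for the 9 ligands with 100 or more UMIs. The clusters share libraries and differ in depth, and r is a description only. Wnt7b was most like Wnt3 (r = 0.88), then like Guca2a and Chit1. Wnt3 was most like Cfap57 (0.92), Clca2 and Guca2a, and Wnt4 like Exph5 (0.92), Baiap2l1 and Sox21. Wnt10a was most like Dll1 (0.93), Lgr6 and Gnai1. Among the FB ligands, Wnt5a was most like Robo1 (0.83), Bmp4 and Hoxc4, and Wnt16 most like Vegfd (0.84), Nsg1 and Prss23. Wnt10b was most like Aldh1a3 (0.84), Efhd1 and Mrgprg. Wnt6 (Tln2, 0.76, then Col23a1 and Zfand5) and Wnt11 (Dpp4, 0.73, then Dennd5b and Tmem39a) had no gene over 0.80. The neighbours Wnt6 and Wnt10a had r = 0.60 with each other.

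The pathway genes around the ligands were counted in the same comparison of classes. Of 15 Frizzled receptors and co-receptors, 13 were tested, with 6 higher and 6 lower in epithelial cells. Fzd6 (log2 difference 3.60), Fzd5 (2.54), Fzd3 (1.93), Fzd10 (1.38), Fzd7 (1.03) and the co-receptor Lrp5 (0.55) were higher. Fzd4 (-3.38), Ror2 (-1.99), a receptor for Wnt5a, Fzd8 (-1.51), Fzd1 (-0.97), the co-receptor Lrp6 (-0.68) and Fzd2 (-0.54) were lower. Of 9 R-spondins and their receptors, 7 were tested. The ubiquitin ligases Rnf43 (5.94) and Znrf3 (1.75) and the receptors Lgr4 (1.10), Lgr5 (3.10) and Lgr6 (2.91) were higher in epithelial cells, and the ligand Rspo1 (-3.58) was lower. Lgr5 was left out of the clustering but was 1 of 9 markers used to name bulge and outer root sheath-like clusters. Its difference is therefore not independent of the classes. Wls, which carries Wnt proteins to the cell surface, was lower by 0.63 on the log2 scale, with 150 CPM in epithelial cells and 224 CPM in FBs. Porcn, which adds the lipid, had a difference of 0.56 that did not pass (edgeR, adjusted p = 0.11).

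Of 12 transducers, 11 were tested, with Ctnnb1 (0.43) and Csnk1a1 (0.92) higher and the TCF factors Tcf7l1 (-1.69) and Tcf7l2 (-0.63) lower in epithelial cells. Of 12 targets, 8 were tested. Ccnd1 (3.28), Myc (0.999) and Lgr5 were higher in epithelial cells, and Dkk2 (-8.25, 7 UMIs in epithelial cells), Twist2 (-8.72) and Nkd2 (-2.39) were lower. Axin2 had a difference of 0.45 that did not pass (edgeR, adjusted p = 0.0557). Of the 9 other Wnt genes, Wnt2 (-6.35), Wnt5b (-0.76) and Wnt9a (-1.39) had enough counts, and these 3 were lower in epithelial cells. Wnt2 had 0.94 CPM in epithelial cells and 74.9 CPM in FBs. The 9 ligands tested had a median log2 difference of 1.22, beside 0.07 over all genes. That median is the value of Wnt6. As 4 of the ligands were lower and 5 higher, it does not describe a shift shared by them.

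The second comparison asks whether the ligands differed between skin injected with PBMCsec and skin injected with vehicle. EdgeR called 0% of 10611 genes in epithelial cells, 0% of 9584 in FBs and 0% of 13182 in all cells together, and so no ligand. At an unadjusted p under 0.05 the shares were 1.57%, 1.93% and 2.54%. DESeq2 called 0 genes in epithelial cells and FBs and 10 in all cells. In summed counts, a change of level within cells and a change in the mix of clusters cannot be told apart. Pooled over libraries, epithelial cells made up 36.7% of PBMCsec cells and 49.6% of vehicle cells. By library these shares overlapped, with 18.5% to 43.7% in PBMCsec libraries and 13.9% to 53.8% in vehicle libraries. Libraries numbered 1 and 2 were the small ones, with 21 to 244 epithelial cells each.

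The CPM in this comparison are scaled by TMM (edgeR's library size factors). In epithelial cells Wnt4 had 151, 129, 168 and 147 CPM in PBMCsec libraries 1 to 4 and 214, 196, 156 and 172 CPM in vehicle libraries 1 to 4. The groups overlapped by 1 library of each. The highest value, that of vehicle library 1, rests on 45 UMIs from 21 cells. The log2 fold change, PBMCsec over vehicle, was -0.29 (SE 0.17, n = 4 each, exact permutation test, p = 0.0571, edgeR adjusted p = 1). Over 19 alternatives the Wnt4 fold change stayed below 0 but ran from -0.54 to -0.03. The smallest p that 4 against 4 libraries allow is 0.0286. Over the 25 tests of ligands in 3 sets of cells the smallest adjusted exact p was 0.595.

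Of the other ligands in epithelial cells none passed the test. Wnt3 had 71.6 ± 39.9 CPM (SD, n = 4) after PBMCsec and 105 ± 33.4 after vehicle, with 39.6 to 123 CPM and 72.1 to 149.9 CPM. Its log2 fold change was -0.49 (SE 0.37), and in libraries 3 and 4 alone it was 0.02. Wnt10a had 81.9 ± 16.4 and 85.3 ± 31.2 CPM, and Wnt7b 25.9 ± 10.4 and 29.5 ± 10.98. These 2 ligands had log2 fold changes of -0.07 (SE 0.26) and -0.13 (SE 0.35), which leaves room for changes from -0.59 to 0.45 and from -0.82 to 0.56 (2 SE either way). Wnt3a had -0.65 (SE 0.54) on counts of 1 to 22 UMIs per library.

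The ligands that were low in epithelial cells gave wide errors. Wnt11 had 6.85, 13.8, 3.15 and 4.59 CPM in PBMCsec libraries 1 to 4 and 0, 1.09, 5.26 and 2.08 CPM in vehicle libraries 1 to 4, on 0 to 45 UMIs per library. The groups overlapped through vehicle library 3, which lay above PBMCsec libraries 3 and 4. The means were 7.11 ± 4.74 and 2.11 ± 2.27 CPM (SD, n = 4), a difference above either SD, and the log2 fold change was 0.77 (SE 0.56, n = 4 each, exact permutation test, p = 0.0857, edgeR adjusted p = 1). It was 1.72 without vehicle library 3, 0.51 without PBMCsec library 2 and -0.02 in libraries 3 and 4 alone. Wnt6 had 13.2 ± 7.24 and 7.20 ± 5.04 CPM (log2 fold change 0.33, SE 0.42), and Wnt5a 17.9 ± 2.22 and 14.1 ± 6.61 CPM (0.18, SE 0.26). Wnt16 had 3.82 ± 3.46 and 7.04 ± 3.13 CPM (-0.26, SE 0.58), and Wnt10b 3.22 ± 3.08 and 3.88 ± 3.52 CPM (-0.38, SE 0.59).

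In FBs the largest fitted log2 fold change was that of Wnt11. It had 23.9, 11.6, 20.2 and 19.8 CPM in PBMCsec libraries 1 to 4 and 11.0003, 5.25, 12.5 and 8.94 CPM in vehicle libraries 1 to 4. All PBMCsec libraries but number 2 were above all vehicle libraries, so the groups overlapped by 1 library. The means were 18.9 ± 5.19 and 9.42 ± 3.14 CPM (SD, n = 4), a log2 fold change of 0.90 (SE 0.31, n = 4 each, exact permutation test, p = 0.0571). In edgeR the unadjusted p was 0.0129 and the adjusted p was 0.9997, and the fold change kept its sign under all alternatives that could be fitted, from 0.65 to 1.15 (libraries 1 and 2 alone had too few counts). The counts behind it were small, with 7 to 94 UMIs per PBMCsec library and 1 to 38 per vehicle library.

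By cluster, pooled over libraries, Wnt11 was higher after PBMCsec in 7 of 9 FB clusters and lower in 2. Clusters of either direction had few UMIs. Dermal papilla-like cells, with the highest Wnt11 level, had 31.5 and 42.1 CPM in PBMCsec libraries 1 and 3. In vehicle library 3 they had 68.5 CPM, from 3 UMIs. A tally of this kind was not particular to Wnt11. In the 9 FB clusters Wnt5a was also higher in 7 and lower in 2, Wnt6 higher in 7 and lower in 0, and Wnt10a higher in 7 and lower in 1, and in the 11 epithelial clusters Wnt4 was lower in 10 and Wnt3 and Wnt7b in 9 each. The clusters share libraries, and the tallies were not tested. Mgp Apod fibroblast-like cells had 14.8 CPM of Wnt11 after PBMCsec (95% interval 9.41 to 22.3, counting error only). After vehicle they had 3.78 CPM (0.78 to 11.04), and the intervals overlapped. By library, PBMCsec libraries 3 and 4 had 7.81 and 0 CPM there, and vehicle libraries 3 and 4 had 7.43 and 0 CPM. PBMCsec libraries 1 and 2 gave 13 and 5 UMIs, and vehicle libraries 1 and 2 had only 6 and 2 such cells. Fascia-type fibroblast-like cells of cluster 5 had 26.1 and 15.3 CPM of Wnt11, also with overlapping intervals. Their values in PBMCsec libraries 1, 3 and 4 were 23.5, 27.5 and 28.9 CPM. In vehicle libraries 1, 3 and 4 they were 11.6, 15.4 and 18.7 CPM, from 1, 7 and 6 UMIs. Inflammatory fibroblast-like cells, which have a high Wnt11 level, made up 0 to 10.02% of FBs in PBMCsec libraries and 0 to 4.31% in vehicle libraries, and their part in the difference was not tested. In dendritic cell-like cells the pooled values went the other way, with 36.3 CPM (26.6 to 48.2) after PBMCsec and 58.4 CPM (41.4 to 80.2) after vehicle. There vehicle library 1 gave 19 of the 38 vehicle UMIs.

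None of the other FB ligands passed the test. Wnt16 had 14.3, 8.31, 32.9 and 15.1 CPM in PBMCsec libraries and 29.3, 42.0, 25.6 and 24.8 CPM in vehicle libraries. The means were 17.6 ± 10.6 and 30.4 ± 7.97 CPM (SD, n = 4), a difference above either SD. PBMCsec library 3 was the 1 library of its group that lay within the vehicle range, and the log2 fold change was -0.52 (SE 0.37, n = 4 each, exact permutation test, p = 0.114). It was -1.53 in libraries 1 and 2 alone and 0.01 in libraries 3 and 4 alone. Wnt5a had 45.2 ± 16.6 and 43.0 ± 21.9 CPM and Wnt10b 18.6 ± 9.65 and 19.3 ± 14.3 CPM (SD, n = 4), with fitted log2 fold changes of 0.28 (SE 0.37) and 0.06 (SE 0.46). For Wnt5a, libraries numbered 1 and 2 of both groups had 44.0 to 73.5 CPM, and those numbered 3 and 4 had 25.6 to 34.9 CPM. Wnt6 had 7.78 ± 5.63 and 9.63 ± 11.6 CPM in FBs, where libraries numbered 1 and 2 had 10.5 to 25.7 CPM and libraries numbered 3 and 4 had 0.99 to 3.29 CPM. The means of Wnt6 and Wnt10b were lower after PBMCsec while the fitted fold changes were above 0 (0.80, SE 0.996, for Wnt6), so no direction is given for either. Wnt3, Wnt3a, Wnt4, Wnt7b and Wnt10a had too few counts in FBs to be tested.

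**Figure D4:**
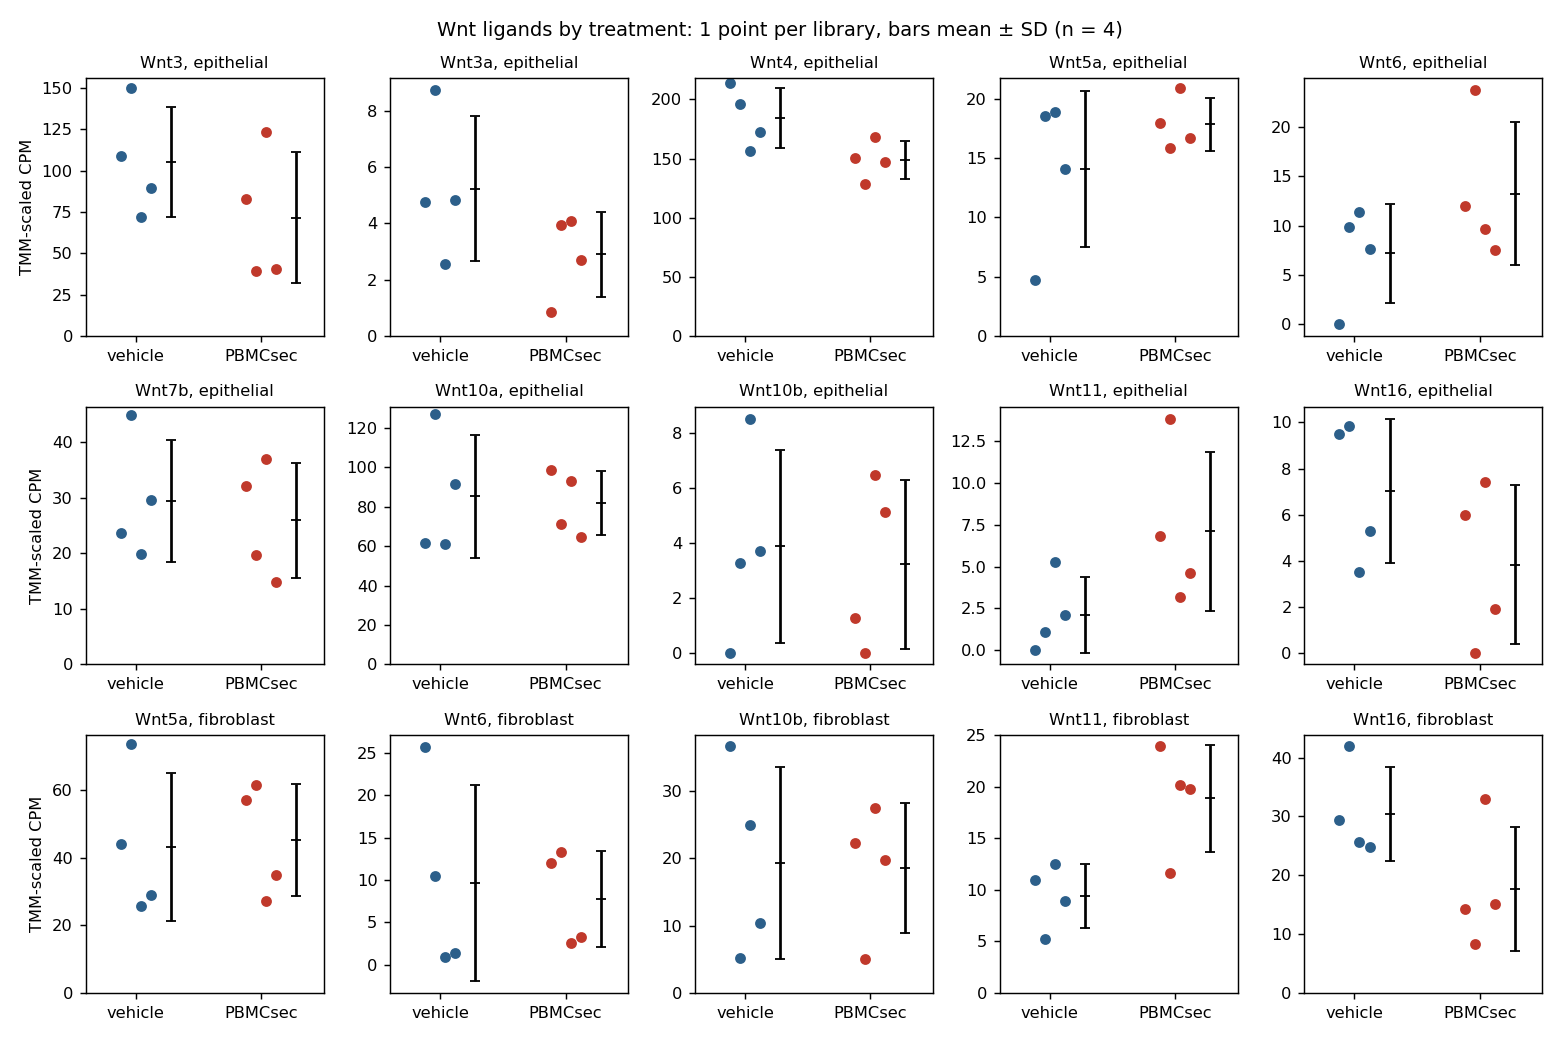
TMM-scaled CPM of the 10 ligands in epithelial cells and of the 5 tested ligands in FBs, 1 point per library, with mean ± SD beside the points (n = 4). Points of the groups overlap in every panel, also for Wnt4 in epithelial cells and Wnt11 in FBs.

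A test of whether the treatment effect differed between epithelial cells and FBs called 0 of 9925 genes (edgeR, interaction term, library block). Of the pathway genes, 0 were called in any of the 3 sets of cells. In epithelial cells the log2 fold changes were -0.00 for Wls (SE 0.25), 0.61 for Porcn (SE 0.46), -0.16 for Axin2 (SE 0.49) and -0.03 for Lef1 (SE 0.43). In FBs they were -0.09 (SE 0.20), -0.16 (SE 0.43), 0.66 (SE 0.37) and -0.09 (SE 1.21).

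The filter on cells bears on the ligands unevenly. The kept cells held 23.5% of all deposited UMIs, and of the ligands they held from 13.1% (Wnt5a) and 14.5% (Wnt6) to 30.1% (Wnt3) and 35.1% (Wnt16). The 23.5% is not a like baseline for the ligands. It leaves the 3 genes removed in processing out of the kept cells but not out of the deposited total. The barcodes left out were not assigned to cell types here. Over all deposited barcodes, the log2 fold changes of Wnt5a, Wnt6 and Wnt10b after PBMCsec were -0.24, -0.24 and -0.40, where the kept cells gave 0.33, 0.12 and 0.03 (no call in either).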

How the data were processed

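The deposited values are UMI counts per gene and cell barcode, which the authors made with Cell Ranger (version 3.0.2 per the submitters' processing notes) on mm10 from Chromium Next GEM 3′ libraries. Their filtered tables still held 26231 barcodes with 16900 over the mitochondrial limit, so the cell filter decides much of what is measured. The filter of the study was applied (500 to 4000 genes, at most 20000 UMIs, at most 5% mitochondrial counts), and 3 genes were then removed (median depths per cell are after that step). Libraries were integrated in Seurat 5.3.0 (1978 of 2000 variable features, without Wnt and pathway genes, 30 dimensions, resolution 1). Clusters were named from at least 3 markers, each in 25% of cells and 2-fold higher than in the rest. Scrublet called 18 cells (0.293%), which is too few to trust, and no cell was removed as a doublet. Leaving out the 5% of cells with the highest doublet scores was tried instead.

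Within each library the counts of a class were added up, and edgeR 4.0.16 was run on these sums in R 4.3.3 (TMM factors, filterByExpr, quasi-likelihood test, Benjamini-Hochberg adjustment over all genes tested, call at 0.05), and with DESeq2 1.42.0 as an alternative. Single ligands were also compared by exact two-sided permutation tests over 70 labellings of the libraries (scipy 1.17.1). Scripts were tested on simulated data. Intervals are exact 95% Poisson or Clopper-Pearson intervals, and these and the floor of 3 counts cover counting error only. Library values by cluster need 10 or more cells. Libraries with the same number correlated above 0.1 in all 4 pairs in all cells (r from 0.29 to 0.57) but not in epithelial cells (-0.02 to 0.46) or FBs (-0.01 to 0.24). All 10 ligands are described. Of pathway genes those called are named, and otherwise Wls, Porcn, Axin2 and Lef1. The members and lists were chosen with earlier results of these data known. Clusters were not tested against each other, since they come from the same cells.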

Additional observations from a re-analysis of the deposited data

Results flagged for a closer look

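In all cells together, Wnt4 had 38.3 CPM (TMM-scaled) in vehicle library 1, far from the other vehicle libraries with 103 to 109.9 CPM. That library had 151 kept cells, of which 13.9% were epithelial, against 36.1% to 53.8% in the other vehicle libraries. Within epithelial cells its Wnt4 level was 214 CPM, the highest of the 4 vehicle libraries. Wnt6 had 8.97 CPM in all cells of vehicle library 3, and the other vehicle libraries had 5.95 to 6.41 CPM. In total 50 groups of 4 libraries were checked, 2 of them stood out in this way, and chance gives about 1 in 20.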

How the results depend on the processing

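For epithelial cells against FBs, the 9 ligands tested kept their direction under all alternatives that could be fitted. Only the Wnt6 call was lost, under 5 of 16 alternatives: DESeq2, leaving out PBMCsec library 3, vehicle library 3 or vehicle library 4, and no library block (log2 difference 0.86 to 1.45 over all 16, adjusted p from 0.00425 to 0.0885). With a mitochondrial limit of 10%, epithelial cells held 88.5% of Wnt4 UMIs in place of 97.5%, and 96.1% of Wnt7b UMIs in place of 99.4%.

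By treatment, edgeR called 0 genes in each set of cells under all alternatives other than libraries 1 and 2 alone, which gave 2 genes in epithelial cells and 3 in FBs. DESeq2 called 10 genes in all cells. No ligand was called under any alternative. With the replicate block (pairing of libraries by number) 0 genes were called in each set, and no call changed.

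The log2 fold change of several ligands turned its sign, with no call before or after (adjusted p 0.545 or more). In epithelial cells, libraries 3 and 4 alone gave Wnt3 0.020, Wnt6 -0.16, Wnt7b 0.091, Wnt10a 0.046, Wnt11 -0.018 and Wnt16 0.15. Leaving out 1 library at a time gave -0.39 to 0.13 for Wnt7b and -0.23 to 0.17 for Wnt10a (above 0 without PBMCsec library 4 or vehicle library 2), and -0.81 to 0.082 for Wnt16 (without PBMCsec library 4). The 10% limit gave Wnt5a -0.27, and interfollicular keratinocytes alone, an alternative chosen after seeing the data like the one that adds cluster 13, gave Wnt5a -0.0098 and Wnt6 -0.038. In FBs, DESeq2 gave Wnt6 -0.0094 and Wnt10b -0.0024, the 10% limit gave Wnt5a -0.10 and Wnt10b -0.19, and libraries 3 and 4 alone gave Wnt16 0.013. Leaving out 1 library gave -0.25 to 1.98 for Wnt6 (below 0 without vehicle library 3, highest without vehicle library 1) and -0.25 to 0.38 for Wnt10b (below 0 without PBMCsec library 3, vehicle library 2 or vehicle library 4). In all cells, the 10% limit gave Wnt5a -0.060 and Wnt10b -0.38, all deposited barcodes gave Wnt5a -0.24, Wnt6 -0.24 and Wnt10b -0.40, libraries 1 and 2 alone gave Wnt10b -0.51, and libraries 3 and 4 alone gave Wnt6 -0.40 and Wnt16 0.31. Leaving out 1 library gave -0.055 to 0.30 for Wnt6 and -0.91 to 0.060 for Wnt16 (signs turned without PBMCsec library 2), and -0.38 to 0.35 for Wnt10b. The cause was not tested. Depth limits the values of the small libraries, with 27 and 31 FBs in vehicle libraries 2 and 1 and 21 epithelial cells in vehicle library 1.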

Other observations

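The 9 Wnt genes outside the list of 10 were mostly too low to test. Summed by class, the 3 that could be tested were higher in FBs than in epithelial cells. Single clusters differed from this for Wnt5b and Wnt9a. Bulge and outer root sheath-like cluster 1 had 34.8 CPM of Wnt5b and 18.8 CPM of Wnt9a. Cxcl12 Lepr fibroblast-like cells (cluster 8) had 61.9 CPM of Wnt5b, and dermal sheath-like cells had 17.3 CPM of Wnt9a. Wnt2, a canonical ligand, followed the fascia-type fibroblast-like cells, with 257 CPM in cluster 31 (21 UMIs), 188 CPM in cluster 5, 113 CPM in inflammatory fibroblast-like cells and 95.8 CPM in cluster 0. Wls, needed for the release of Wnt proteins, had 149 to 330.1 CPM in the FB clusters, highest in cluster 31 (27 UMIs), and 58.8 to 245 CPM in the epithelial clusters, where basal keratinocyte-like cells were highest and infundibulum-like cells lowest. Lef1 had 96.6 CPM in T cell-like cells of cluster 6, where the 10 ligands together had 8.78 CPM.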
